A study of Mus musculus with 11 samples.

Results

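A set of 81 genes was detected in every library of melan-a, 4C and 4C11-. In 4C11+ they were at least 3 log2 units lower, and most of them had almost no reads. They are 81 of the 14272 deposited rows, and 73 of them are protein coding. The members were selected on these same measured values. The lowest of the 8 libraries of melan-a, 4C and 4C11- had to be above 0 on the log2 CPM scale (read counts scaled to the size of the library) and at least 3 log2 units over the highest of the 3 libraries of 4C11+. Of the 98 rows that met both limits, 15 were histone genes with a symbol starting with Hist and 2 were left out by name, Fgfr2 and Peg3. The low level in 4C11+ is thus the criterion of choice, and it is described below without a test. Of the members, 9 had a lowest value under 1 outside 4C11+, and the fewest reads there were 6. In the 4C11+ libraries 3 reads stand at -0.24 to 0.15. The gap of these 9 thus depends much on where 0 reads was placed.

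The 4 lines form a mouse series of melanoma progression. Melan-a is a spontaneously immortalized, nonmalignant melanocyte line, from which cycles of blocked adhesion gave rise to the other lines. 4C is pre-malignant and mesenchymal-like, 4C11- is a mesenchymal-like melanoma line that does not metastasize, and 4C11+ is a metastatic melanoma line. Total RNA was sequenced after ribosomal RNA removal, giving the 11 libraries analysed, with 3 for each line except melan-a, of which replicates 2 and 3 were present. The medium of melan-a held PMA, a phorbol ester, at 200 nM and that of the derived lines did not, so that medium and line cannot be told apart for melan-a. Each stage is 1 line and the replicates are cultures of it, so p-values measure the spread between cultures and not between independently derived lines.

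Several of the members are well known in tumor biology. Cdkn2a encodes p16, an inhibitor of the cyclin D-dependent kinases, and ARF, which restrains Mdm2 and thereby protects p53, and the adjacent Cdkn2b encodes p15, another inhibitor of these kinases. Zeb1 represses epithelial genes during epithelial-to-mesenchymal transition, Lef1 is a nuclear partner of beta-catenin in Wnt signaling, and Casp1 and Casp12 belong to the inflammatory caspases. Other members are receptors and secreted regulators, such as the thrombin receptor F2r, the Tyro3/Axl/Mertk ligand Gas6 and the IGF-binding protein Igfbp5.

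The depth, estimated from the steps that single reads leave among the low values, lay between 3.50 and 7.42 M reads per library, and the 3 libraries of 4C11+ had 4.07 to 5.47 M. The 13 melanocyte markers measured had a summed level of 11747 to 14050 CPM in 4C11+, 4.92 to 9.08 in 4C and 4.73 to 14.1 in 4C11-, so the melanocyte markers were near 0 in both mesenchymal-like lines. The 2 melan-a libraries stood apart from each other. Replicate 2 had 2049 CPM of melanocyte markers, 206 CPM over the 5 fibroblast markers measured and 96.8 CPM over the 3 leukocyte markers, while replicate 3 had 9375, 26.2 and 12.7 CPM. In 4C11+ the fibroblast markers summed to 33.6 to 50 CPM against 1969 to 2631 in 4C and 4C11-, and the 2 keratinocyte and 2 endothelial markers measured reached at most 1.54 CPM each as a sum. The 5 lists held 14, 10, 8, 8 and 6 genes, and their part in the results was not tested. In RNA from whole cultures, fewer cells that express a gene and less RNA per cell cannot be told apart.

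In 4C11+, 45 of the 81 members had 0 reads in all 3 libraries, and 65 had no library above 3 reads. The other 16 had at least 1 library above 3 reads, with up to 41 reads for Mmp2. The gap between the lowest other library and the highest 4C11+ library had a median of 3.97 log2 units and ranged from 3.03 to 8.02. The median over the members of the difference of 4C11+ from the other lines was -5.90 on the log2 scale, against 0.08 over all rows. It was -4.36 when every value under 3 reads was raised to the value of 3 reads, a figure that does not depend on where a count of 0 was placed on the log scale. Just inside the limit were Scara5 with a gap of 3.03, Gm15264 with 3.04 and Dusp5, Lef1 and Slurp1 with 3.07 each. Just outside were Ly6f and Fzd8 with 2.88 each and Apoa1 and Nos1ap with 2.84 each. When each other line was taken in turn as the low one, the same limits were met by 47 rows for melan-a, 15 for 4C and 2 for 4C11-. By the mirror image of the limits, 46 rows were high in 4C11+. No symbols were left out of these counts, so they stand beside the 98 rows for 4C11+ and not the 81 members. Melan-a has 2 libraries and the other lines 3, so its count is not strictly alike.

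**Figure D1:**
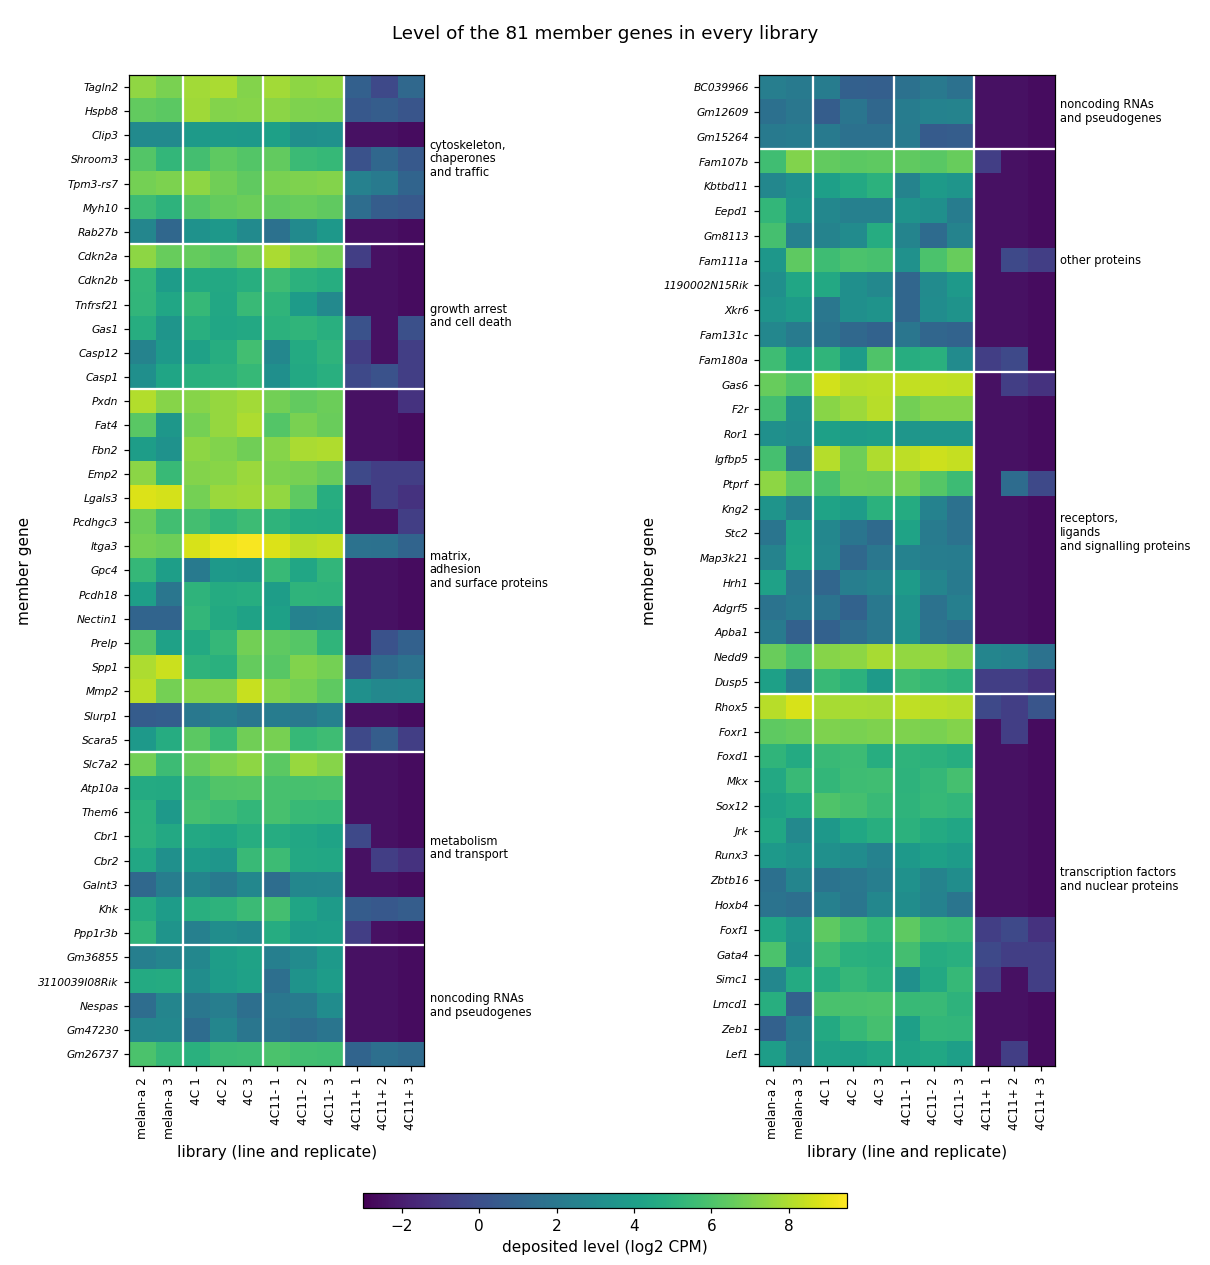
Deposited level (log2 CPM, color) of the 81 members (rows, grouped by role and ordered by the gap within a role) in each of the 11 libraries (columns, replicates as labelled). By the rule of choice the 3 columns of 4C11+ are darker than the other 8 for every member, but not all at the lowest level (Mmp2 is at 2.81 to 3.27). Within the other 8 libraries the color varies mostly between genes.

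The members were grouped by role, after the values were seen. There were 15 transcription factors and nuclear proteins, 15 matrix, adhesion and surface proteins, 13 receptors, ligands and signaling proteins, 8 genes of metabolism and transport, 7 of cytoskeleton, chaperones and traffic and 6 of growth arrest and cell death. A further 8 were noncoding RNAs or pseudogenes and 9 were other proteins.

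Among the genes of growth arrest, Cdkn2a (chr4:89274471-89294653, minus strand, GRCm38) was at 7.36 and 6.59 log2 CPM in melan-a, 6.57, 6.32 and 6.81 in 4C, 7.90, 7.13 and 6.87 in 4C11- and -0.70, -2.44 and -2.58 in 4C11+. The single 4C11+ library above the lowest value, replicate 1, held 1 read. Cdkn2b (chr4:89306299-89311039, minus strand) was at 5.26 and 3.89 in melan-a, 4.61, 4.54 and 4.86 in 4C, 5.64, 5.04 and 4.78 in 4C11- and at 0 reads in all 3 4C11+ libraries. With 3 reads per library as the floor, Cdkn2b was at least 27.4-fold lower in 4C11+ than the mean of the other lines' log2 means. All such folds below are against that mean, and against a single line they can be smaller. The long noncoding transcript Gm12609 lies next to it and was at least 3.51-fold lower, also with 0 reads in 4C11+. The 3 genes are consecutive among the deposited genes and span 125 kb. The gene before them, Mtap, which encodes an enzyme of methionine salvage and is often lost together with Cdkn2a in human tumors, was not low in 4C11+. Mtap was at 8.0 and 8.22 in melan-a, 7.47, 7.19 and 6.97 in 4C, 7.86, 7.71 and 8.04 in 4C11- and 8.40, 8.42 and 8.49 in 4C11+, which was 0.71 ± 0.16 (SE) log2 units over the other lines (limma, adjusted p = 0.00496). The gene after them, the noncoding Gm12610, had 0 reads in 4C11+ and did not meet the limits, as its lowest other library, 4C replicate 1, was at -1.01. The next deposited protein-coding gene on that side, Caap1, differed by -0.46 ± 0.37 (limma, adjusted p = 0.374). Caap1 is not adjacent, as it starts at 94500081 and Gm12610 ends at 89463487. The values thus do not show how far the low levels reach on that side.

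The promoters of the 2 pairs Cdkn2a-Cdkn2b and Casp1-Casp12 are shown because the members of each lie close together and were low together. Casp4, which is not a member, lies between Casp1 and Casp12. CpG dinucleotides are in capitals. They are RefSeq sequences of GRCm38.p6, each from 250 bases before to 50 after the most upstream start in the table, in the direction of the gene. Cdkn2a is chr4:89294570-89294869 (minus strand), Cdkn2b chr4:89310983-89311282 (minus strand), Casp1 chr9:5298267-5298566 (plus strand) and Casp12 chr9:5345226-5345525 (plus strand).
Cdkn2a: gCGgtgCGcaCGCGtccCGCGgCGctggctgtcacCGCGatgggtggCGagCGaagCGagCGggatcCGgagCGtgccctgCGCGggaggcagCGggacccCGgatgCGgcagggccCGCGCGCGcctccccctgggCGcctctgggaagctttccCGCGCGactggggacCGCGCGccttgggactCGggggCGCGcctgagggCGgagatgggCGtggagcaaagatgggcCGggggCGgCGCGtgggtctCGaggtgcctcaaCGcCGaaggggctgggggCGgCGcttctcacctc
Cdkn2b: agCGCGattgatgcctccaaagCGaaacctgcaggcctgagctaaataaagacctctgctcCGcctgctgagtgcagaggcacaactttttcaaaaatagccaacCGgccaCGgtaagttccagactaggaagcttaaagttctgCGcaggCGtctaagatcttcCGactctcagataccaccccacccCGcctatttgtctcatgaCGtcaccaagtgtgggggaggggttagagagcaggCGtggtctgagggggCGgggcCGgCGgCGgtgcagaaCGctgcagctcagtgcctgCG
Casp1: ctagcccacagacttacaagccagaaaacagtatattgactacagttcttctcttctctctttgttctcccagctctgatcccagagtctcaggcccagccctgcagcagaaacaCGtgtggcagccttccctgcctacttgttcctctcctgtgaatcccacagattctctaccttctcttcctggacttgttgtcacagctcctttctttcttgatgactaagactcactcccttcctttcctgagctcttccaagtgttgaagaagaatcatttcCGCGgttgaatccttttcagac
Casp12: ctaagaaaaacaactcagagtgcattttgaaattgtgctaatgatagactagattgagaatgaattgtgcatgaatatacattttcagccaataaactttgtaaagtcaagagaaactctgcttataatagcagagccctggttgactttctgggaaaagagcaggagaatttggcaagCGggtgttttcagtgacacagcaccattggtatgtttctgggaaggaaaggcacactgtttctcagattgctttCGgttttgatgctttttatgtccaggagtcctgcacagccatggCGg
The Cdkn2a window holds 45 CpG dinucleotides, that of Cdkn2b 18 and those of Casp1 and Casp12 3 each, so the members include both CpG-dense and CpG-poor promoters. Each window covers a single start, so its count does not describe any other start of the gene, as for the products of Cdkn2a. Only 54 of the 81 members had a sequence in the table, so a comparison of base composition over the whole set is void.

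Casp1 was at 3.23 and 4.35 in melan-a, 4.95, 5.05 and 5.38 in 4C, 3.23, 4.56 and 4.88 in 4C11- and -0.24, 0.15 and -0.70 in 4C11+, or 2, 3 and 2 reads. Casp12 was at 2.58 and 3.70 in melan-a, 4.14, 4.78 and 5.72 in 4C, 2.78, 4.63 and 5.12 in 4C11- and 1, 0 and 2 reads in 4C11+. Casp4, the caspase gene between them, also differed in 4C11+ from the other lines' mean, by -1.29 ± 0.34 (limma, adjusted p = 0.0127), although its means in melan-a and 4C11+, 0.72 and 0.66, were close. The other members of this role are the death receptor Tnfrsf21, with 0 reads in 4C11+ and at least 24.3-fold lower, and the growth arrest gene Gas1, with 3, 0 and 4 reads.

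Of the transcription factors, Rhox5, a homeobox gene of the X chromosome, was at 8.14 and 8.76 in melan-a, 7.85, 7.84 and 7.81 in 4C, 8.31, 8.19 and 8.12 in 4C11- and -0.24, -0.70 and 0.28 in 4C11+, or 2, 1 and 5 reads. The forkhead gene Foxr1 was at 6.41 and 6.53 in melan-a, 7.10, 6.99 and 7.10 in 4C, 7.08, 6.97 and 7.20 in 4C11- and at 0, 1 and 0 reads in 4C11+. Both genes varied little across the other lines, which made the step to 4C11+ the only large one. The forkhead gene Foxd1 was at 5.18 and 4.62 in melan-a, 5.49, 5.55 and 4.79 in 4C, 5.13, 5.02 and 4.80 in 4C11- and at 0 reads in 4C11+, at least 32.6-fold lower. Mkx, a homeobox gene of tendon, was at 4.55 and 5.49 in melan-a, 5.27, 5.62 and 5.65 in 4C, 5.10, 5.34 and 5.81 in 4C11- and at 0 reads in 4C11+, at least 39.2-fold lower. Sox12, an SRY-related gene, was at 4.21 and 4.55 in melan-a, 6.05, 5.82 and 5.46 in 4C, 5.13, 5.36 and 5.23 in 4C11- and at 0 reads in 4C11+, at least 34.5-fold lower. Foxd1 and Mkx were not called by limma in any contrast of the other lines, whereas Sox12 was higher in 4C than in melan-a by 1.40 ± 0.33 (SE, limma, adjusted p = 0.0130). Zeb1 was at 0.87 and 2.09 in melan-a, 4.59, 5.37 and 5.83 in 4C, 4.04, 5.26 and 5.23 in 4C11- and at 0 reads in 4C11+. Melan-a was thus below both mesenchymal-like lines for Zeb1, and 4C11+ was at least 14.3-fold lower than the other lines on average. The forkhead gene Foxf1 was at 4.38 and 3.53 in melan-a, 6.41, 5.82 and 5.27 in 4C, 6.40, 5.60 and 5.47 in 4C11- and at 1, 2 and 1 reads in 4C11+. The other members of this role are Gata4, Hoxb4, Jrk, Lef1, Lmcd1, Runx3, Simc1 and Zbtb16, and 14 of the 15 had no 4C11+ library above 3 reads.

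**Figure D2:**
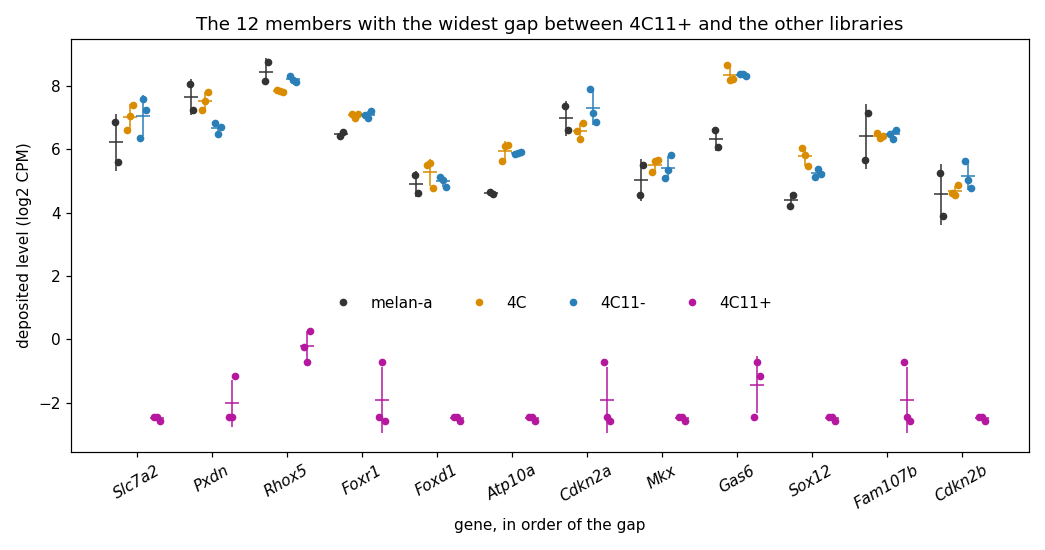
Deposited level (log2 CPM) of the 12 members with the widest gap, in each library (points) with the mean and SD of each line (bars). The 4C11+ points lie between -2.58 and 0.28, and the lowest point of another line is at 3.89.

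Of the receptors and ligands, Gas6 was at 6.59 and 6.06 in melan-a, 8.65, 8.17 and 8.22 in 4C, 8.37, 8.37 and 8.30 in 4C11- and at 0, 1 and 1 reads in 4C11+. F2r was at 5.78 and 3.23 in melan-a, 7.30, 7.69 and 8.17 in 4C, 6.84, 7.19 and 7.18 in 4C11- and at 0 reads in 4C11+, at least 84.8-fold lower. Igfbp5 was at 5.82 and 2.14 in melan-a, 8.12, 6.75 and 8.03 in 4C, 8.26, 8.55 and 8.39 in 4C11- and at 0 reads in 4C11+, at least 100.3-fold lower. In all 3 genes the melan-a libraries were below every library of 4C and 4C11-, and in F2r and Igfbp5 they also differed widely from each other. The folds of F2r and Igfbp5 are against the other lines' mean and are smaller against melan-a alone. The non-canonical Wnt receptor Ror1 was at least 11.8-fold lower in 4C11+. The other members are Adgrf5, Apba1, Dusp5, Hrh1, Kng2, Map3k21, Nedd9, Ptprf and Stc2, and 9 of the 13 had 0 reads in all 3 4C11+ libraries.

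Of the matrix and surface proteins, Pxdn, a peroxidase that crosslinks collagen IV, was at 8.04 and 7.24 in melan-a, 7.22, 7.51 and 7.79 in 4C, 6.83, 6.49 and 6.68 in 4C11- and at 0, 0 and 1 reads in 4C11+. Fbn2, a microfibril protein, was at 3.97 and 3.38 in melan-a, 7.38, 7.15 and 6.79 in 4C, 7.23, 7.90 and 8.01 in 4C11- and at 0 reads in 4C11+, at least 70.6-fold lower. Itga3, the alpha subunit of a laminin-binding integrin, was at 6.90 and 6.73 in melan-a, 8.76, 9.18 and 9.36 in 4C, 8.82, 8.20 and 8.34 in 4C11- and 1.70, 1.68 and 1.04 in 4C11+, or 12, 12 and 9 reads. Itga3 is thus one of the members whose RNA was still counted in each 4C11+ library. The adhesion protein Nectin1 was at 1.05 and 1.04 in melan-a, 5.28, 4.61 and 4.21 in 4C, 4.08, 2.54 and 2.67 in 4C11- and at 0 reads in 4C11+, at least 7.58-fold below the other lines' mean. For Nectin1 and Fbn2, which were lower in melan-a than in 4C and 4C11-, the fold against melan-a alone is smaller. The matrix protease Mmp2 kept 40, 28 and 41 reads in 4C11+, and the osteopontin gene Spp1 kept 3, 9 and 15 reads. Both show a large drop from a high level and not an absence. The remaining members are Emp2, Fat4, Gpc4, Lgals3, Pcdh18, Pcdhgc3, Prelp, Scara5 and Slurp1, of which Pcdhgc3 shares exons with other protocadherin gamma genes and is uncertain.

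Of the genes of metabolism and transport, Slc7a2, a carrier of cationic amino acids, had the widest gap. It was at 6.84 and 5.58 in melan-a, 6.61, 7.06 and 7.40 in 4C, 6.34, 7.58 and 7.24 in 4C11- and at 0 reads in 4C11+, at least 107-fold lower. The phospholipid flippase Atp10a was at 4.64 and 4.59 in melan-a, 5.62, 6.11 and 6.13 in 4C, 5.86, 5.88 and 5.92 in 4C11- and at 0 reads in 4C11+, at least 44.0-fold lower. The other members are the carbonyl reductases Cbr1 and Cbr2, Galnt3, the ketohexokinase Khk, Ppp1r3b and Them6. In the role of cytoskeleton, chaperones and traffic, 5 of the 7 members kept reads above the floor, namely Tagln2, Hspb8, Shroom3, Tpm3-rs7 and Myh10, while Clip3 and Rab27b had 0 reads. Myh10, a nonmuscle myosin heavy chain, was at 5.57 and 5.09 in melan-a, 6.18, 6.54 and 6.67 in 4C, 6.49, 6.58 and 6.45 in 4C11- and 1.48, 0.67 and 0.48 in 4C11+. Tpm3-rs7 is a near copy of Tpm3 and its counts may hold reads of that gene.

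Of the other proteins, Fam107b was at 5.67 and 7.13 in melan-a, 6.52, 6.35 and 6.41 in 4C, 6.47, 6.32 and 6.60 in 4C11- and at 1, 0 and 0 reads in 4C11+. The others are 1190002N15Rik, Eepd1, Fam111a, Fam131c, Fam180a, Gm8113, Kbtbd11 and Xkr6. The noncoding members are 3110039I08Rik, BC039966, Gm12609, Gm15264, Gm26737, Gm36855, Gm47230 and Nespas, and 7 of these 8 had 0 reads in 4C11+. BC039966, Gm26737 and Nespas are annotated as antisense, and since the strand setting of the counting is not given in the sources used here, reads of their sense partners cannot be separated.

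Differences among the lines that express the members were tested with limma. The rule did not select on these contrasts. It did use the lowest of the same 8 libraries, so the counts are not independent of the choice. Between melan-a and 4C, 16 of the 81 members were higher in 4C and 2 lower (limma, adjusted p under 0.05), against 7.64% higher and 7.55% lower over all rows. Between melan-a and 4C11-, 12 were higher in 4C11- and 1 lower, against 7.55% and 6.05%. The members called thus lay mostly on the side of the mesenchymal-like lines. Between 4C and 4C11-, limma called 0 members higher, against 1.26% of all rows, and 0 lower, against 0.406%. At an unadjusted p under 0.05 there were 10 of 81 members in that contrast, close to the 13.5% of all rows. The libraries did not overlap between 4C and melan-a for 43 of the 81 members, against 42.1% of all rows, between 4C11- and melan-a for 37, against 36.6%, and between 4C11- and 4C for 21, against 19.3%. In all, 60 members were called in 0 of the 3 contrasts by limma, 11 in 1 and 10 in 2, against 80.8%, 8.29% and 10.5% of all rows. The median difference of the members was 0.44 between 4C and melan-a (all rows -0.06), 0.46 between 4C11- and melan-a (all rows -0.07) and -0.07 between 4C11- and 4C (all rows 0.01).

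All 10 members called in 2 contrasts were higher in both 4C and 4C11- than in melan-a, which held for 5.75% of all rows. Zeb1 was higher by 3.79 ± 0.54 (SE) log2 units in 4C (limma, adjusted p = 0.000488) and by 3.37 ± 0.54 in 4C11- (adjusted p = 0.00126). Fbn2 was higher by 3.44 ± 0.34 in 4C (limma, adjusted p = 2.78e-05) and by 4.04 ± 0.34 in 4C11- (adjusted p = 8.22e-06). Nectin1 was higher by 3.66 ± 0.53 in 4C (limma, adjusted p = 0.000581) and by 2.06 ± 0.53 in 4C11- (adjusted p = 0.0241). For these 3 genes the range of melan-a was well below that of the other 2 lines, and 4C11+ was below melan-a. The fewest reads outside 4C11+ were 7 for Zeb1 and 8 for Nectin1, so their step from melan-a to 4C11+ is near the floor. Igfbp5 was higher by 3.65 ± 0.80 in 4C (limma, adjusted p = 0.00890) and by 4.42 ± 0.80 in 4C11- (adjusted p = 0.00280). F2r was higher by 3.21 ± 0.58 in 4C (limma, adjusted p = 0.00257) and by 2.56 ± 0.58 in 4C11- (adjusted p = 0.0110). The other 5 were Itga3, Gas6, Foxf1, Atp10a and Myh10, higher by 1.14 to 2.28 in 4C and by 1.18 to 2.03 in 4C11-.

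The 3 members called lower than in melan-a were Spp1 and Eepd1 in 4C and the galectin gene Lgals3 in 4C11-. Spp1 was at 7.94 and 8.52 in melan-a and at 5.13, 4.96 and 6.54 in 4C, a difference of -2.69 ± 0.54 (limma, adjusted p = 0.00534). Lgals3 was at 8.85 and 8.71 in melan-a and at 7.47, 6.38 and 4.80 in 4C11-, a difference of -2.56 ± 0.68 (limma, adjusted p = 0.0263). Both genes were thus highest in melan-a, the reverse of Zeb1.

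These counts rest in part on single libraries. The share of all rows called without each library is not given here, so whether the changes are particular to the members was not tested. Without melan-a replicate 3 the members called fell to 11 for 4C and to 6 for 4C11-, without 4C replicate 2 the count for 4C was 9, and without 4C11- replicate 2 the count for 4C11- was 8. Melan-a replicate 3 was also the lowest of the 8 libraries for 31 of the 81 members, and without it the rule would have found 173 genes, whereas without melan-a replicate 2 it would have found 83. Without melan-a replicate 3, F2r in 4C11- was higher than melan-a by 1.29 and Gas6 in 4C by 1.76, and these calls were lost. Foxf1 and Myh10 also lost both calls. Igfbp5 kept both calls without it, at the smaller differences of 1.81 in 4C and 2.58 in 4C11-. Nectin1 in 4C11- lost its call without either melan-a library or without 4C11- replicate 1 (limma, adjusted p = 0.0501 to 0.0825). Lgals3 lost it without either melan-a library and without 4C11- replicate 2 or 3 (limma, adjusted p = 0.0567 to 0.109), and Eepd1 without 8 of the 11 libraries. The median absolute difference between the 2 melan-a libraries was 0.95 log2 units over the members and 0.61 over all rows.

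**Figure D3:**
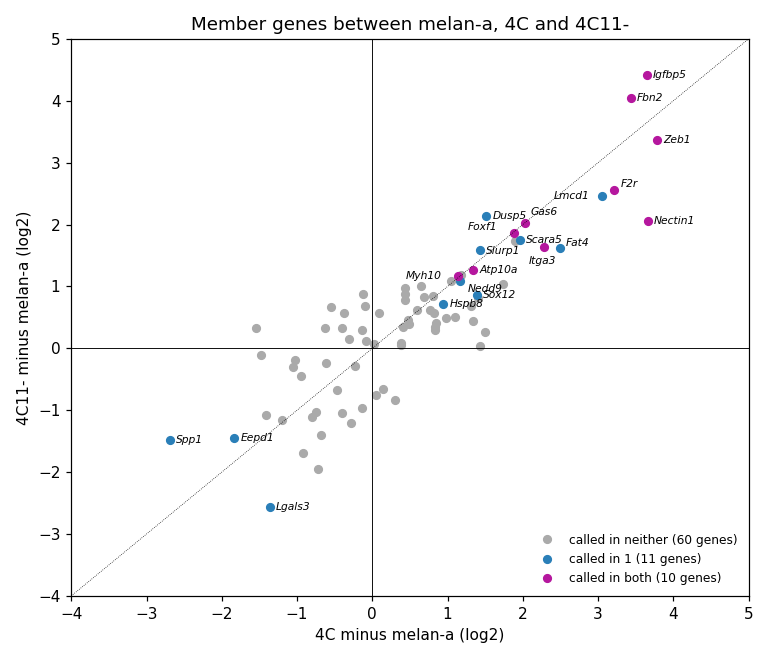
Difference of each of the 81 members between 4C and melan-a (x axis, log2) and between 4C11- and melan-a (y axis, log2), colored by the number of contrasts called by limma. The 10 genes called in both lie in the upper right, between 1.14 and 3.79 on the x axis, and Spp1, Eepd1 and Lgals3 lie in the lower left.

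Positions on the chromosomes were examined next, since the rule did not use them. All 81 members have a position in the annotation, and 6 places hold 2 or 3 members that are consecutive or have a single other deposited gene or 2 between them. These are Cdkn2a-Cdkn2b-Gm12609 and Casp1-Casp12 above, Jrk-Them6-Slurp1 on chromosome 15 (25.7 kb), Gata4-Xkr6 on chromosome 14 (622 kb), Tnfrsf21-Adgrf5 on chromosome 17 (443 kb) and Gm36855-Nectin1 on chromosome 9 (301 kb). Of the 150 next neighbors that are not members, 49 were lower and 22 higher in 4C11+ than the other lines' mean (limma, adjusted p under 0.05). That is 32.7% lower and 14.7% higher, against 15.8% lower and 18.3% higher over all rows. With only rows of a mean of at least 1, 23 of 105 next neighbors were lower, or 21.9% against 16.2% of the rows. Within 3 places on either side the share lower was 27.1% of 439 genes and the share higher 15.7%. Among 625 genes that share with a member the letters of the symbol before its first digit, 16.0% were lower and 25.8% higher. This set is broad, since Slc7a2 brings in other Slc genes and Rab27b other Rab genes, and it does not stand for close relatives.

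Around Jrk-Them6-Slurp1 the low stretch reached beyond the members. Jrk, a DNA-binding nuclear protein, had 0 reads in 4C11+ and was at least 18.3-fold lower, Them6 at least 35-fold and Slurp1 at least 3.18-fold, although Them6 and Slurp1 overlap and their reads may be shared. The next deposited genes, Lynx1, Ly6e, Ly6a and Ly6c1, encode surface proteins of the same Ly6/uPAR family as Slurp1. Ly6a was at 4.64 and -0.70 in melan-a, 6.95, 7.27 and 7.81 in 4C, 7.89, 6.27 and 6.01 in 4C11- and at 0 reads in 4C11+ (limma, adjusted p = 3.53e-05 against the other lines). Ly6e was at 5.61 and -1.42 in melan-a, 7.37, 7.46 and 7.60 in 4C, 8.14, 7.0 and 6.96 in 4C11- and at most 1 read in 4C11+ (limma, adjusted p = 0.000212). All 4 genes were lower in melan-a replicate 3, their lowest library outside 4C11+, than in replicate 2. On the other side of Jrk, Arc was low in 4C11+ and in melan-a, whereas Ptp4a3, a phosphatase gene, was higher in 4C11+ by 4.89 ± 0.51 (limma, adjusted p = 2.51e-05).

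**Figure D4:**
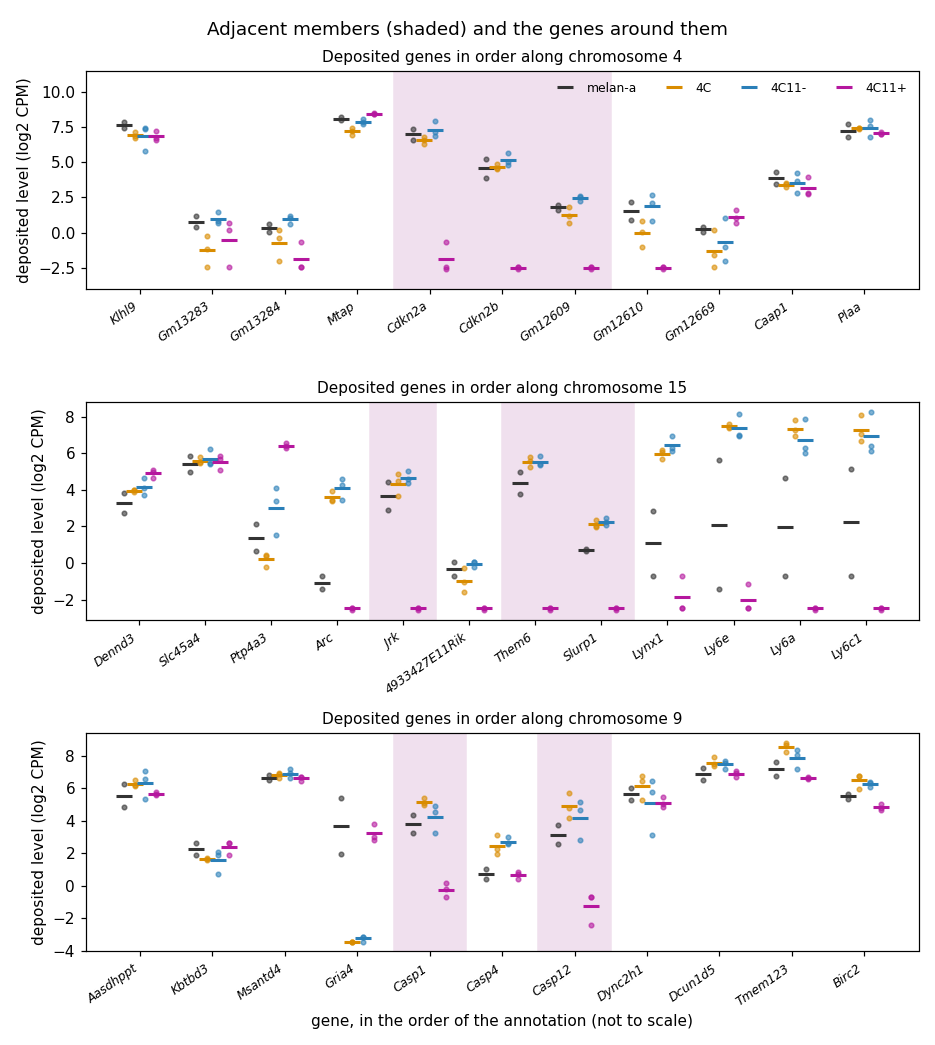
Deposited level (log2 CPM) of members (shaded) and of the deposited genes around them, in order along chromosomes 4, 15 and 9, with 1 point per library and a bar for the mean of each line. In 4C11+ the level drops at Cdkn2a while Mtap stays at 8.40 to 8.49, and on chromosome 15 it is low from Arc to Ly6c1.

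Chromosome 9 held 11 of the 81 members, which is 13.6% of them against 5.84% of the rows. Of these, 7 lay in a stretch from 41 to 49 Mb that was chosen after the values were seen, namely 3110039I08Rik, Gm36855, Nectin1, Gm26737, Foxr1, Gm47230 and Zbtb16, a zinc finger gene. This stretch holds 86 rows. Of its 79 genes that are not members, 50 were lower in 4C11+ than the other lines' mean and 2 higher (limma, adjusted p under 0.05), or 63.3% and 2.53%. On the rest of the chromosome, 77 of 742 genes were lower and 247 higher, or 10.4% and 33.3%. Over all rows 15.8% were lower and 18.3% higher, with a median difference of 0.08. The rest of the chromosome thus itself lay above all rows in 4C11+. The median difference was -1.05 log2 units inside the stretch and 0.52 outside it, or -0.89 and 0.51 with values under 3 reads raised to 3 reads, and 69 of the 79 genes inside were negative. With only rows of a mean of at least 1, 39 of 57 were lower, or 68.4%, and the count of 50 ranged from 42 to 52 without single libraries. Ccdc84 and Sidt2, which kept up to 89 and 313 reads in a 4C11+ library, were lower by differences of -3.26 each, and Apoa1 had 0 reads and a difference of -2.54 with 4C11+ at 3 reads. The 2 genes that were higher were Ubash3b and the noncoding AC160966.1. In the contrasts of the other lines the stretch did not have a lower median. Between 4C and melan-a its median difference was 0.05, against 0.01 on the rest of the chromosome, between 4C11- and 4C 0.18 against -0.05, and between 4C11- and melan-a 0.31 against -0.09. In 4C11- the stretch thus lay slightly higher than the rest, a difference that was not tested. By limma, 8 of the 79 genes were lower and 6 higher in 4C than in melan-a. That is 10.1% lower, against 4.85% on the rest of the chromosome and 7.55% of all rows. Lower and higher were 1 and 3 in 4C11- against 4C, and 4 and 6 in 4C11- against melan-a.

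**Figure D5:**
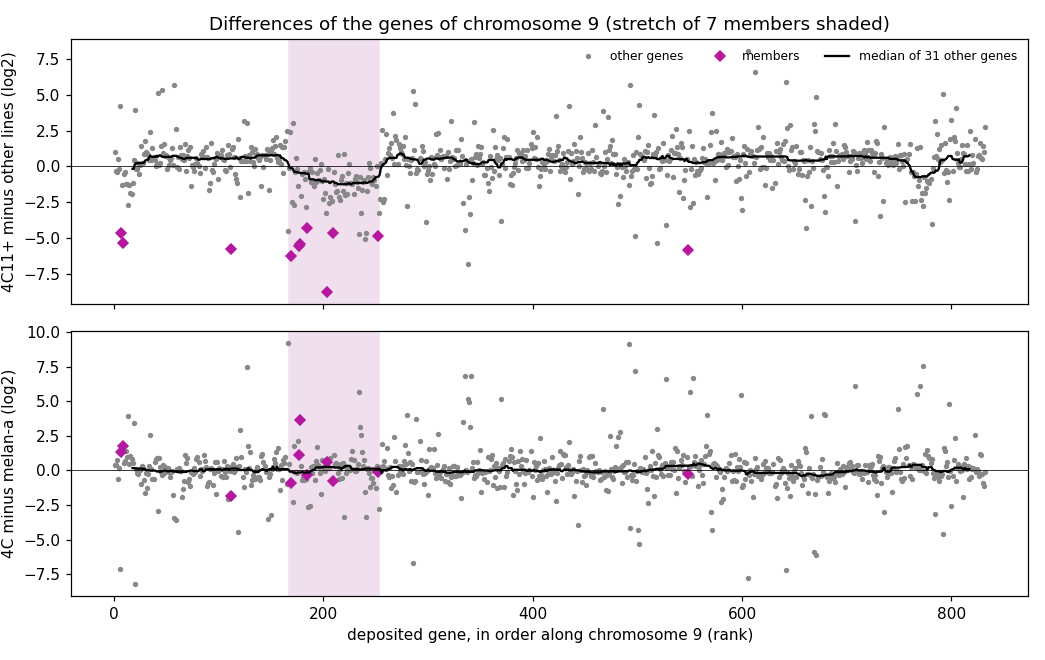
Difference of each deposited gene of chromosome 9 in order along the chromosome (rank), of 4C11+ from the other lines' mean (upper panel, log2) and between 4C and melan-a (lower panel, log2), with members as diamonds, the stretch shaded and the running median of 31 other genes as a line. The line drops below 0 in the shaded stretch of the upper panel, where the median is -1.05, and stays near 0 in the lower panel.

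For 19 fixed lists of pathway genes and cell type markers, with any members left out, 4C11+ was compared with the other lines' mean. Most of these lists hold no member. Their counts stand against 15.8% lower and 18.3% higher over all rows. Over the 22 other genes of the cell cycle list, 7 were higher and 2 lower. The p53 target Cdkn1a, which encodes the kinase inhibitor p21, had a mean of 7.47 in 4C11+ and of 3.27, 3.03 and 3.29 in melan-a, 4C and 4C11-, and was higher by 4.27 ± 0.46 (limma, adjusted p = 3.66e-05). Mdm2, the p53 ligase that ARF restrains and also a p53 target, was higher by 2.41 ± 0.18 (limma, adjusted p = 2.60e-06). Trp53 itself, named after its value was seen, was lower, with a difference of -1.23 ± 0.30 (limma, adjusted p = 0.00802). Cdkn2d, a further inhibitor of the family of Cdkn2a and Cdkn2b, was higher by 1.36 ± 0.30 (limma, adjusted p = 0.00444).

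In the Wnt list, which holds the members Ror1 and Lef1, 16 of the 30 others were lower and 1 higher. Nkd2, an inhibitor of the pathway, had a mean of 0.65 in 4C11+ and of 6.27, 6.06 and 4.98 in melan-a, 4C and 4C11-, a difference of -5.12 ± 0.58 (limma, adjusted p = 5.18e-05). Of the 13 other genes of the IGF list, which holds Igfbp5, 9 were lower and 2 higher, with Igfbp4 higher by 4.21 ± 0.51 (limma, adjusted p = 8.88e-05). Binding proteins of IGF thus moved in both directions, since Igfbp2 and Igfbp6 had at most 2 reads in 4C11+. In the list of basement membrane and matrix, which held no member, 19 of 30 were lower and 7 higher. Of the 19 other imprinted genes, listed beside the member Nespas, 4 were lower and 7 higher.

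The other lists also held no member, and their counts stand against the same 15.8% lower and 18.3% higher over all rows. Lower and higher were 13 and 3 of 31 in the TGF-beta and BMP list, 7 and 1 of 19 in the Notch list, 7 and 1 of 13 in the Eph list and 4 and 1 of 16 in the FGF list. In the lists of antigen presentation and of RNA and DNA sensing, 10 of 16 and 10 of 20 were lower and 0 higher by limma, and in that of KRAB zinc finger cofactors 4 of 10 were lower and 0 higher. Shares nearer to those of all rows were found in glutathione and aldehyde detoxification, where 7 of 29 were lower and 7 higher, and in DNA methylation, where 1 of 16 was lower and 3 higher. All 13 melanocyte markers were higher in 4C11+, whereas 3 of 5 fibroblast, 1 of 2 keratinocyte, 2 of 2 endothelial and 0 of 3 leukocyte markers were lower by limma, and 1 fibroblast marker was higher.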

How the data were processed

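The authors used STAR for alignment and Rsubread for counting, kept only genes reaching 1 CPM in 4 or more libraries, and ran voom on the counts. As deposited, values are on a log2 CPM scale, and the authors' libraries share 1 distribution, as after quantile normalization. They were used unchanged. The low values of each library are steps of single reads, from which reads and an approximate depth were derived. Positions are from GENCODE M21 (GRCm38), promoters from RefSeq, and 24 rows had no symbol. Lines were compared with limma 3.58.1 in R 4.3.3 (a mean per line over all 11 libraries, trend, Benjamini-Hochberg over 14272 rows). The fit was tested on simulated data. No p-value is given for members in 4C11+ against the other lines. Described in every library are the 12 members of widest gap and the 10 called in 2 contrasts. Neighbors are the 3 nearest deposited genes on each side. The members and lists were chosen with earlier results of these data known. Same-numbered libraries correlated at -0.23 to 0.39 in their deviations, so numbers were not treated as pairs. Depth limits differences near 0 reads.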

Additional observations from a re-analysis of the deposited data

How the results depend on the processing

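The count of 81 members became 132 with a gap of 2 log2 units and 40 with a gap of 4, and 81 to 173 without single libraries, the highest without melan-a replicate 3. The median difference of the members went from -5.90 to -4.36 with values under 3 reads raised to 3 reads and stayed between -6.04 and -5.76 without single libraries. Members called between 4C and melan-a, 18 in all, ranged from 9 to 21 without single libraries, and those between 4C11- and melan-a, 13 in all, from 6 to 16. Between 4C11- and 4C the range was 0 to 1, the single call being Nectin1 without 4C11- replicate 1. With the replicate number as a block, the counts were 15, 11 and 0. The shares of all rows called in these fits are not given here, so the ranges describe the members only. The block ended both calls of Myh10, those of Hspb8, Nedd9 and Scara5 in 4C and that of Slurp1 in 4C11- (limma, adjusted p = 0.0509 to 0.0732). Deviations of same-numbered libraries correlated at a median of 0.15 over 15 pairs, against -0.09 over the 30 other pairs, but not in every pair, so the numbers were not taken as pairs. Next neighbors lower in 4C11+ went from 49 to 23 with only rows of a mean of at least 1, where fewer were tested, an alternative chosen after the data were seen. None of the 31 named differences between the expressing lines reversed under the alternatives run, and 11 of them kept their call under every one. With roughly 3.50 to 7.42 M reads per library, a member with 0 reads may still be transcribed below the level of 3 reads.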
